A study of Mus musculus with 6 samples.

Results

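NRF2, encoded by Nfe2l2, is a transcription factor that switches on genes for the making and recycling of glutathione and for detoxification, and KEAP1 is the protein that holds it in check. The set examined here consisted of Nfe2l2, Keap1 and 8 NRF2 target genes: Slc7a11, Gclc, Gclm, Gss, Gsr, Srxn1, Nqo1 and Hmox1. The 10 genes were chosen by name, as the probe sets whose only gene symbol in the platform annotation was on that list. Each had exactly 1 such probe set, so that 10 of the 19938 genes tested belong to the set, and none was lost to a filter on low values.

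Total RNA of dissected organ of Corti, the hearing epithelium of the cochlea, was measured on 6 Affymetrix mouse gene arrays. Of these, 3 came from Pjvk-/- mice, in which the Pjvk gene is inactivated, and 3 from Pjvk+/+ mice. All animals were at postnatal day 15 of the mixed C57BL/6J-129/Sv strain, and no treatment is given in the labels. Pjvk encodes pejvakin, a gasdermin family protein that the study's title connects with peroxisomes and sound exposure, and the comparison asks how transcripts of the hearing organ differ without it.

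In unstressed cells KEAP1 hands NRF2 to a CUL3 ubiquitin ligase for degradation. Oxidants and electrophiles modify cysteines of KEAP1, NRF2 then accumulates, pairs with a small MAF protein and binds antioxidant response elements near its target genes. NRF2 is therefore controlled largely through the stability of the protein, which an array of transcripts does not measure. In the cochlea, glutathione is a main buffer against the hydrogen peroxide and lipid peroxides formed by sound exposure and ototoxic drugs, and mice without Nfe2l2 are known to be more sensitive to noise.

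None of the 10 genes passed the test between genotypes, and 8 of them were lower and 2 higher in Pjvk-/- arrays. The smallest adjusted p-value was 0.241, for Nfe2l2 (limma, Benjamini-Hochberg over all 19938 genes, called below 0.05). Over all genes 7 were called, all lower, which is 0.0351% of those tested. At an unadjusted p under 0.05 were 3 of the 10, Nfe2l2 and Nqo1 on the lower side and Slc7a11 on the higher side, where 12.4% of all genes reached that level, 6.66% lower and 5.74% higher. In 5 of the 10, Nfe2l2, Gclm, Gss, Nqo1 and Slc7a11, the 3 Pjvk-/- values did not overlap the 3 Pjvk+/+ values, against 17.8% of all genes. Of these 5 the first 4 were lower, as were 11.3% of all genes, and Slc7a11 was higher, as were 6.59%. The differences were small: the largest in size, those of Nqo1, Nfe2l2 and Slc7a11, were 1.18-fold, and the median over the 10 genes was -0.12 on the log2 scale, beside -0.01 over all genes tested. An exact permutation test of 3 against 3 arrays cannot give a two-sided p below 0.1, so limma's moderated test across the table carries the comparison.

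**Figure D1:**
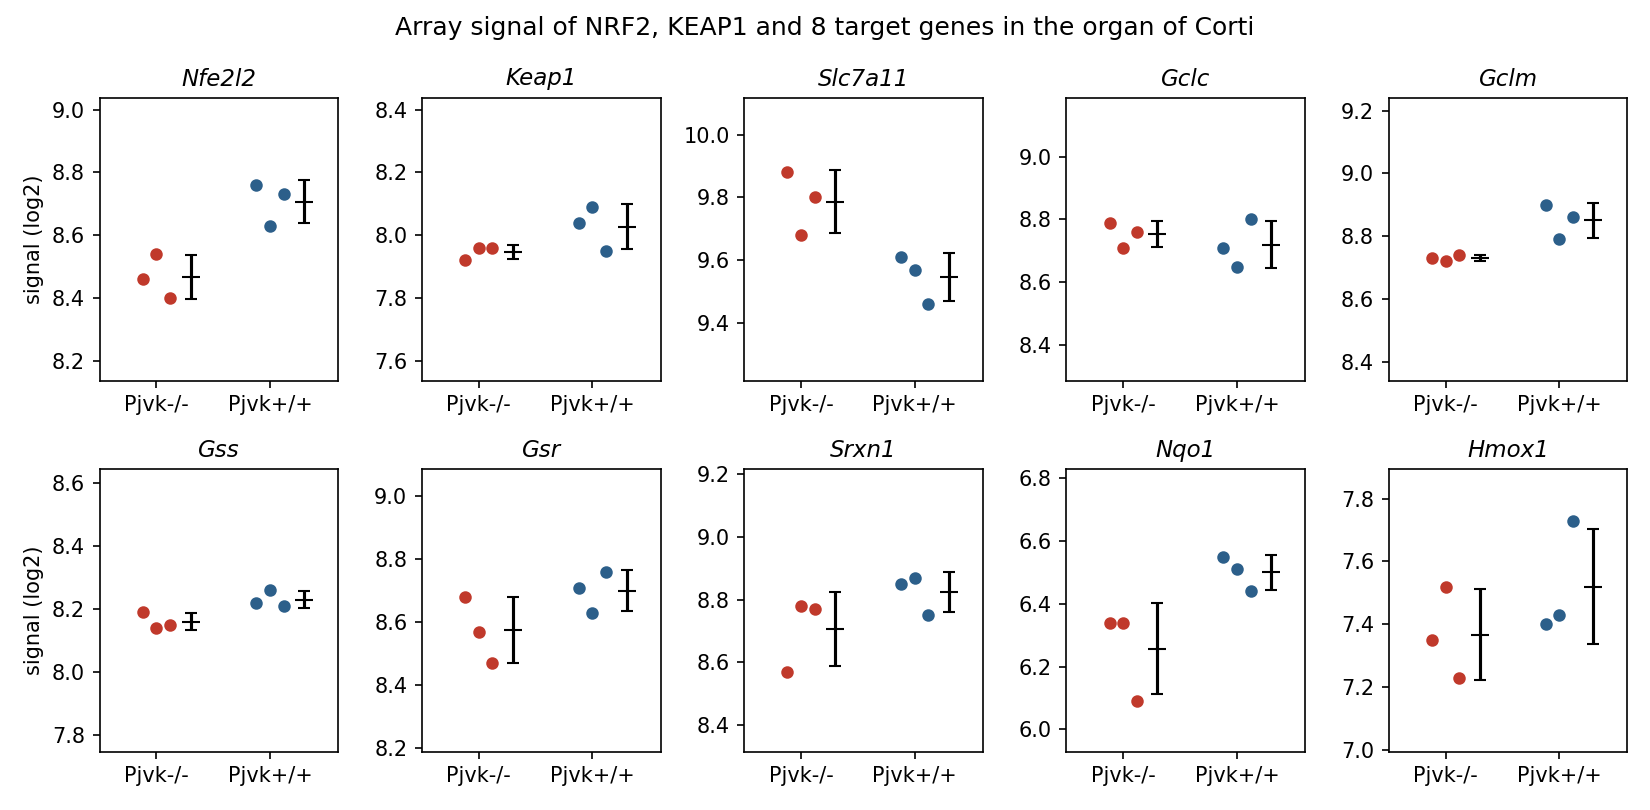
Signal of each gene in each array (log2, vertical axes all 0.9 units tall), with Pjvk-/- arrays in red on the left and Pjvk+/+ arrays in blue on the right of each panel; the bars beside the points are mean ± SD of 3 arrays. The genotypes do not overlap in Nfe2l2, Slc7a11, Gclm, Gss and Nqo1 and overlap in the other 5 genes.

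Nfe2l2 itself lay lower. Its probe set read 8.46, 8.54 and 8.40 in Pjvk-/- arrays, against 8.76, 8.63 and 8.73 in Pjvk+/+ arrays (log2 signal). Every Pjvk-/- array was thus below every Pjvk+/+ array. Nfe2l2 differed by -0.24 (standard error, SE, 0.06), with a 95% interval from -0.38 to -0.10; this is 1.18-fold, and the exact permutation p was 0.1, the smallest possible. In the whole data set 4.04% of genes differed by as much in either direction. Nfe2l2 lies on chromosome 2, the chromosome of Pjvk and 9 measured genes away from it. Of the 15 measured genes on each side of Pjvk, 30 in all, 23 were lower and 7 higher with a median of -0.04. Of all genes 53.8% were lower, and of those in level decile 8, where Nfe2l2 belongs, 79.0%. The neighbours were not matched for signal level. Differences among the 30 ran from -0.95 to 0.44, Ttn was the 1 called gene, and 3 of the 30, Nfe2l2 among them, were at least as low as Nfe2l2. Whether the position bears on the Nfe2l2 signal cannot be told apart from the genotype here.

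Keap1, which encodes the adaptor that marks NRF2 for degradation, showed no separation. It read 7.92, 7.96 and 7.96 in Pjvk-/- arrays and 8.04, 8.09 and 7.95 in Pjvk+/+ arrays, so that the third Pjvk+/+ value lay among the Pjvk-/- values. The difference was -0.08 (SE 0.06, 95% interval -0.21 to 0.05, adjusted p = 0.577). A change of Nfe2l2 relative to Keap1 was not resolved either: the within-array difference of the probe sets shifted by -0.16 between genotypes, with a 95% interval from -0.33 to 0.01. Only the shift can be read, because the levels of different probe sets cannot be set against each other.

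Glutathione supply starts with cystine, which enters through the antiporter whose light chain is encoded by Slc7a11. This gene and Gclc, described next, were the 2 on the higher side. It read 9.88, 9.68 and 9.80 in Pjvk-/- arrays, against 9.61, 9.57 and 9.46 in Pjvk+/+ arrays. All 3 Pjvk-/- values were the higher ones, with a difference of 0.24 (SE 0.07, 95% interval 0.08 to 0.40, 1.18-fold, adjusted p = 0.278, exact permutation p = 0.1). Among genes of the top level decile, where Slc7a11 belongs, the median difference was -0.04 and 76.0% were lower. Slc3a2, which encodes the heavy chain of the same antiporter, read 11.08, 11.17 and 11.15 in Pjvk-/- arrays, against 11.20, 11.23 and 11.19 in Pjvk+/+ arrays, a difference of -0.07 (SE 0.05). Slc3a2 was named after its values were seen. The 95% interval of Slc3a2, from -0.20 to 0.05, includes 0, and its difference was close to the median of that same top decile. Neither chain passed the test.

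The rate-limiting step of glutathione synthesis joins glutamate and cysteine and is carried out by glutamate-cysteine ligase, with the catalytic subunit Gclc and the modifier subunit Gclm. Gclc read 8.79, 8.71 and 8.76 in Pjvk-/- arrays and 8.71, 8.65 and 8.80 in Pjvk+/+ arrays. The groups overlapped and the difference was 0.03 (SE 0.06, 95% interval -0.10 to 0.17, adjusted p = 0.839). Gclm read 8.73, 8.72 and 8.74 in Pjvk-/- arrays, against 8.90, 8.79 and 8.86 in Pjvk+/+ arrays. Here the Pjvk-/- arrays were nearly identical and all below the others, with a difference of -0.12 (SE 0.05, 95% interval -0.24 to 0.005, adjusted p = 0.412). The difference between the Gclm and Gclc probe sets was -0.06, 0.01 and -0.02 in Pjvk-/- arrays and 0.19, 0.14 and 0.06 in Pjvk+/+ arrays. These differences did not overlap and shifted by -0.15, with a 95% interval from -0.29 to -0.02 that takes no account of the choice of this pair after the values were known. Gss encodes glutathione synthetase, which adds glycine in the second step. Its values were 8.19, 8.14 and 8.15 in Pjvk-/- arrays, against 8.22, 8.26 and 8.21 in Pjvk+/+ arrays. The groups were separate by a narrow margin, at a difference of -0.07 (SE 0.05, 95% interval -0.19 to 0.05, adjusted p = 0.588).

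Of the genes that restore oxidized thiols, Gsr encodes glutathione reductase, which returns oxidized glutathione to its reduced form with NADPH. It read 8.68, 8.57 and 8.47 in Pjvk-/- arrays and 8.71, 8.63 and 8.76 in Pjvk+/+ arrays. The first Pjvk-/- value lay within the Pjvk+/+ range, and the difference was -0.13 (SE 0.07, 95% interval -0.29 to 0.03, adjusted p = 0.477). Srxn1 encodes sulfiredoxin, which repairs hyperoxidized peroxiredoxins. It read 8.57, 8.78 and 8.77 in Pjvk-/- arrays and 8.85, 8.87 and 8.75 in Pjvk+/+ arrays. Only the first Pjvk-/- value stood clear of the Pjvk+/+ range. The Srxn1 difference was -0.12 (SE 0.07, 95% interval -0.28 to 0.05, adjusted p = 0.525), and it shrank to -0.05 without Pjvk-/- replicate 1.

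The detoxification genes Nqo1 and Hmox1 are often used as readouts of NRF2 activity. Nqo1, a quinone reductase, read 6.34, 6.34 and 6.09 in Pjvk-/- arrays, against 6.55, 6.51 and 6.44 in Pjvk+/+ arrays. Its groups did not overlap, with the third Pjvk-/- array lowest. The Nqo1 difference was -0.24 (SE 0.08, 95% interval -0.42 to -0.06, 1.18-fold, adjusted p = 0.315, exact permutation p = 0.1), and it was -0.16 without Pjvk-/- replicate 3. Hmox1 encodes heme oxygenase, which breaks down heme and is also high in macrophages. It read 7.35, 7.52 and 7.23 in Pjvk-/- arrays and 7.40, 7.43 and 7.73 in Pjvk+/+ arrays. The groups overlapped and the spread within each genotype was the widest of the set, with an SD of 0.15 in Pjvk-/- and 0.18 in Pjvk+/+ arrays. The difference was -0.15 (SE 0.10, 95% interval -0.39 to 0.09, adjusted p = 0.558), and it was -0.05 without Pjvk+/+ replicate 3.

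**Figure D2:**
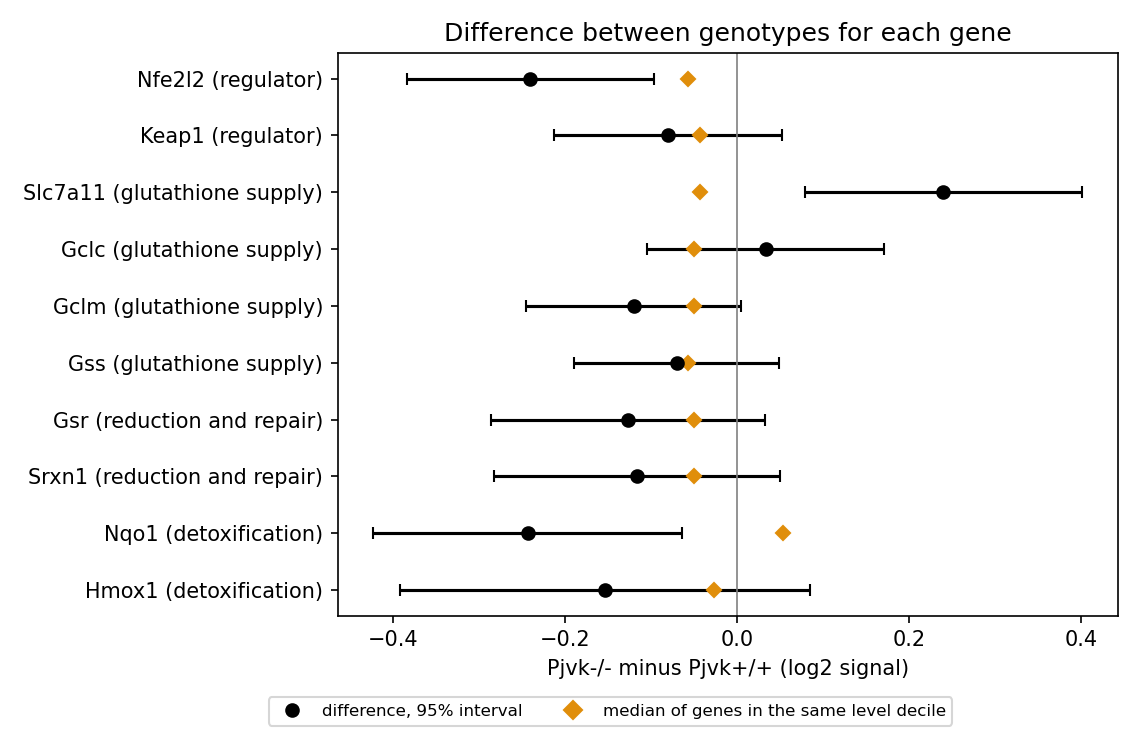
Difference between genotypes (horizontal axis, Pjvk-/- minus Pjvk+/+, log2 signal) for each gene, ordered by role from top to bottom; black points and bars are limma's estimate and 95% interval over 3 against 3 arrays, and orange diamonds are the median of all genes in the same decile of signal level. The intervals of Nfe2l2, Nqo1 and Slc7a11 do not include 0 before adjustment, and those of the other 7 genes do.

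Signal level has to be read beside these differences, because brighter genes as a whole lay slightly lower in Pjvk-/- arrays. Of the 10 genes, 8 lay in deciles 7 to 10 of mean signal, with Hmox1 in decile 6 and Nqo1 in decile 4. The median difference was -0.05 in decile 9, which holds Gclc, Gclm, Gsr and Srxn1, and 77.2% of its genes were lower. Against the median of its own decile, Gss was at -0.01, Keap1 at -0.04 and Gclm, Gsr and Srxn1 between -0.08 and -0.07. Nfe2l2 at -0.18, Hmox1 at -0.13 and Nqo1 at -0.30 stood farther below their deciles, and Slc7a11 at 0.28 and Gclc at 0.08 above them. Nqo1 was in a decile where only 31.8% of genes were lower.

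**Figure D3:**
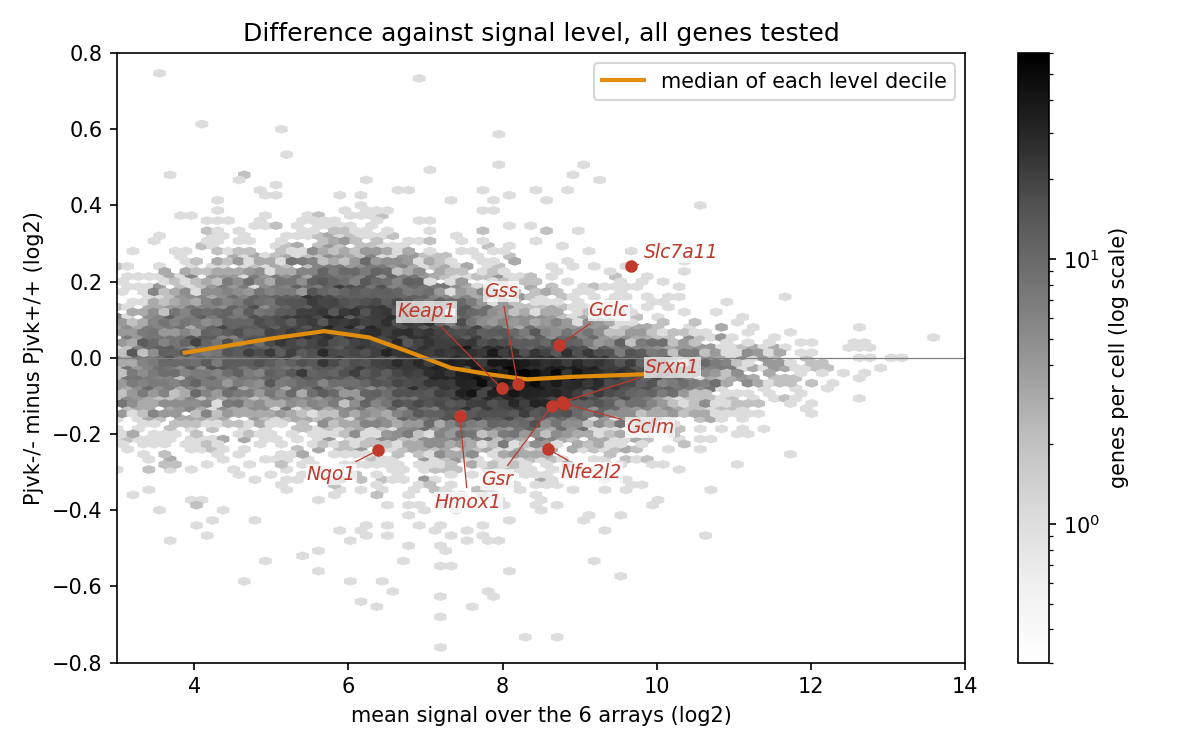
Difference between genotypes (vertical axis, log2) against mean signal over the 6 arrays (horizontal axis, log2); grey cells count genes on a log scale, red points are the 10 genes and the orange line joins the medians of the level deciles. The line runs above 0 at low signal and near -0.05 at high signal; 110 genes outside the drawn range are not shown.

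The letters next to the start sites were looked at because NRF2 acts through antioxidant response elements, whose core is written TGACNNNGC or TGAGNNNGC. Both forms were searched on both strands in the 250 bases before each RefSeq start (GRCm38.p6), and matches on opposite strands could overlap. The promoter table held 7 of the 10 genes. A core was present for Nfe2l2, Slc7a11, Gclm and Srxn1, 4 of those 7, and in 25.7% of the 27025 genes with a window. None was present in the windows of Keap1, Gss and Nqo1, which says only that these letters are not in that stretch. The 4 windows with a match are shown because they include the lower Nfe2l2 and the higher Slc7a11; lower case is the window from 5′ to 3′ in the direction of the gene, and capitals mark the core. Nfe2l2 is at chr2:75704664-75704913 on the minus strand, Slc7a11 at chr3:50443614-50443863 on the minus strand, Gclm at chr3:122245307-122245556 on the plus strand and Srxn1 at chr2:152105274-152105523 on the plus strand.
Nfe2l2: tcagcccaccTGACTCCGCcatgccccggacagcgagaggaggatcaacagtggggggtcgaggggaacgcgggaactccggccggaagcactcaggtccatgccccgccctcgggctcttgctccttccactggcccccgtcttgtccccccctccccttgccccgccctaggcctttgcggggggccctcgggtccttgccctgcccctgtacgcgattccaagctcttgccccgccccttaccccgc
Slc7a11: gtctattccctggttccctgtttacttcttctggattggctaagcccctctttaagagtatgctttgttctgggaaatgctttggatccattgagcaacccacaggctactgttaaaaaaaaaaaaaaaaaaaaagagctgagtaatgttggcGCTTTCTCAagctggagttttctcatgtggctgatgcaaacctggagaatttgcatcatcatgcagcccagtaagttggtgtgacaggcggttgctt
Gclm: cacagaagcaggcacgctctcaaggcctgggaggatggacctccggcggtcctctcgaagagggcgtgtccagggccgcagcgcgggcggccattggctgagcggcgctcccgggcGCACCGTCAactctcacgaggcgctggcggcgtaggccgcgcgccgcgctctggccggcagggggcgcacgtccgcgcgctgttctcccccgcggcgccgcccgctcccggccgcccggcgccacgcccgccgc
Srxn1: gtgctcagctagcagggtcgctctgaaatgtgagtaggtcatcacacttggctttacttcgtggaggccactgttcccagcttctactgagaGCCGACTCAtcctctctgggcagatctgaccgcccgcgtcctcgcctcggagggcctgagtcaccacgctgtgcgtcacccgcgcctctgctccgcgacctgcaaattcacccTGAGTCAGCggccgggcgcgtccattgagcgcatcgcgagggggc

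The Nfe2l2 core, TGACTCCGC, reads in the direction of the gene and lies 240 to 232 bases before the start. In Gclm the core is read on the opposite strand as TGACGGTGC, from base -134 to base -126. Slc7a11 has TGAGAAAGC on the opposite strand from base -97 to base -89. Srxn1 has 2 matches, TGAGTCGGC on the opposite strand and TGAGTCAGC in the direction of the gene, the nearer of them from base -45 to base -37. The genes with a core thus included both directions of difference, -0.24 for Nfe2l2 and 0.24 for Slc7a11. Over the whole table the median difference was -0.02 for the 4293 measured genes with a core and -0.01 for the 11321 without one.

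The other genes of the pathway were taken from 3 lists, and none of their members was called. Among 22 regulators and partners of NRF2, 14 were lower and 8 higher, with a median of -0.02. The 4 with the smallest unadjusted p were Trim21, a ubiquitin ligase that binds the autophagy receptor p62, at -0.18 (SE 0.08), the retinoid receptor gene Rxra at -0.12 (SE 0.06), and the small MAF genes Maff at 0.13 (SE 0.06) and Mafg at 0.12 (SE 0.07). Their adjusted p-values ran from 0.395 to 0.463. The small MAF proteins are the DNA-binding partners of NRF2; the groups of Maff did not overlap, those of Mafg did, and Mafk, the third of these genes, was at -0.03 (SE 0.08).

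Further NRF2 targets numbered 33, of which 24 were lower and 9 higher, with a median of -0.05. Their average over the list was 8.289 to 8.299 in Pjvk-/- arrays and 8.336 to 8.356 in Pjvk+/+ arrays, without overlap. Many of these genes were bright, and brighter genes as a whole lay lower. Over all genes, the medians in level deciles 8, 9 and 10 were -0.06, -0.05 and -0.04, with 79.0%, 77.2% and 76.0% lower. The further targets were not compared with genes of matched level. The differences with the smallest unadjusted p belonged to Gpx2, a glutathione peroxidase, at -0.45 (SE 0.13), Osgin1, an oxidative stress-induced growth inhibitor, at 0.21 (SE 0.07), the epoxide hydrolase gene Ephx1 at -0.19 (SE 0.06) and the ferritin light chain gene Ftl1 at -0.19 (SE 0.07). Gpx2 read 8.96, 9.34 and 8.88 in Pjvk-/- arrays and 9.63, 9.62 and 9.29 in Pjvk+/+ arrays, and its groups overlapped. Osgin1, at 6.61, 6.57 and 6.56 in Pjvk-/- arrays, against 6.26, 6.38 and 6.47 in Pjvk+/+ arrays, was separate on the higher side. Adjusted p-values of these 4 genes lay between 0.276 and 0.334.

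In the rest of glutathione metabolism, 19 of 30 genes were lower, 9 higher and 2 without a difference, with a median of -0.06. Ggct, which encodes the gamma-glutamylcyclotransferase of glutathione breakdown, was at -0.23 (SE 0.06, adjusted p = 0.273). Its values were 6.76, 6.61 and 6.68 in Pjvk-/- arrays, against 6.84, 6.92 and 6.97 in Pjvk+/+ arrays, with no overlap. Ggt6, a gamma-glutamyltransferase family gene, was at 0.22 (SE 0.08), the dipeptidase gene Dpep2 at 0.18 (SE 0.09) and Slc25a39, a mitochondrial glutathione carrier, at -0.12 (SE 0.06), with adjusted p-values between 0.334 and 0.430. Beside the whole table, where 53.8% of genes were lower, 63.6% of the regulators, 72.7% of the further targets and 63.3% of the glutathione genes were lower. These shares were not matched for signal level.

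**Figure D4:**
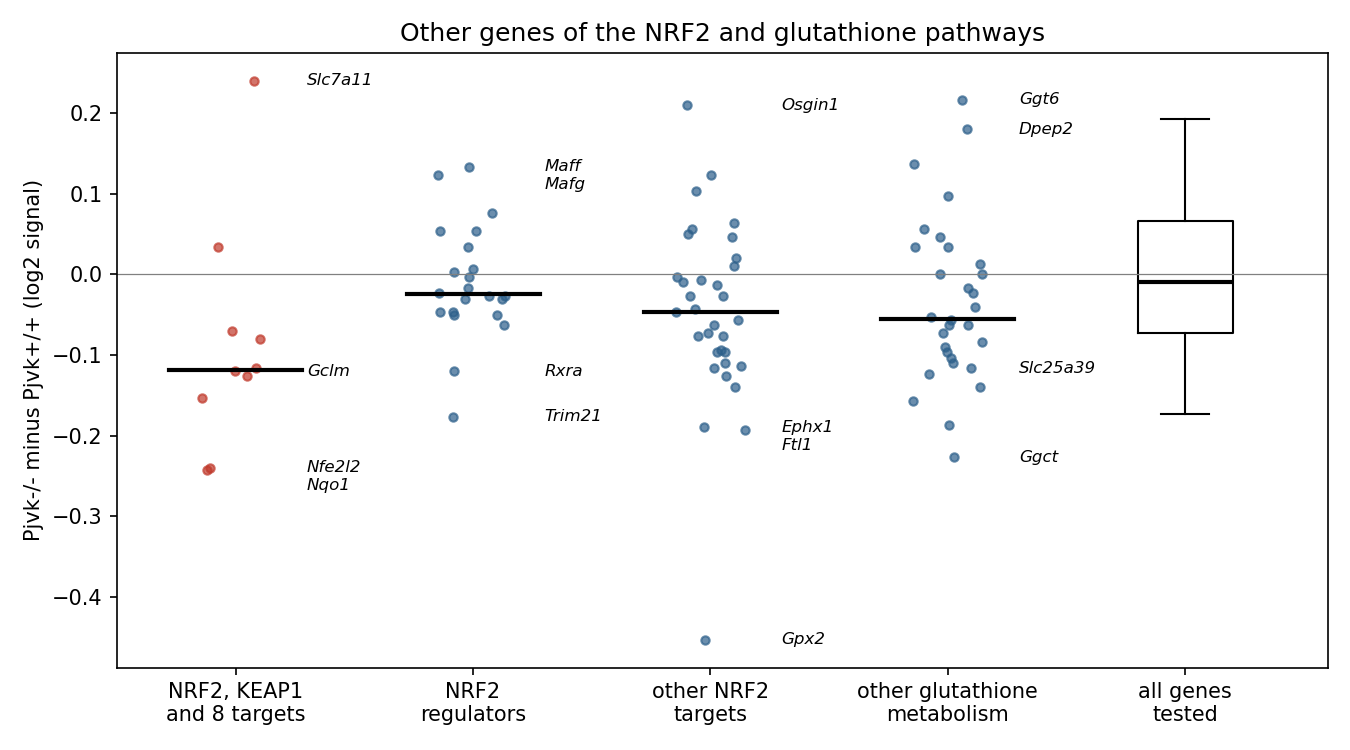
Difference between genotypes (vertical axis, Pjvk-/- minus Pjvk+/+, log2 signal) for the 10 genes in red and the 3 lists of other pathway genes in blue; each point is a gene, black lines are list medians, and the 4 genes with the smallest unadjusted p in each column are named. The box shows the quartiles of all genes tested, with whiskers from percentile 5 to percentile 95 (-0.17 to 0.19); Nfe2l2, Nqo1 and Slc7a11 of the 10 genes lie beyond the whiskers.

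Arrays of bulk tissue cannot tell fewer cells of a type from less RNA per cell, so markers of cell types were read beside these results. Hair cell markers averaged 7.24 to 7.34 in Pjvk-/- arrays and 7.21 to 7.27 in Pjvk+/+ arrays (log2, 12 genes), with overlap. Supporting cell markers averaged 8.8033 to 8.91 in Pjvk-/- arrays and 8.7508 to 8.7975 in Pjvk+/+ arrays (12 genes), separate by a narrow margin. Of these 12 supporting cell markers, 7 were higher and 5 lower, and none was called. The smallest adjusted p among them was 0.0923, for Tectb at 0.45. Over the 12 hair cell markers the mean signal ran from percentile 35.6 of all genes for Chrna10, an efferent receptor subunit, to percentile 95.1 for Ocm, a calcium-binding protein of outer hair cells. Schwann cell and glia markers (4 genes) ran from percentile 81.9 for Mog to 99.99 for Pmp22. Fibrocyte and bone markers (6 genes) ran from percentile 87.6 for Otos to 99.9 for Coch. The averages of both lists overlapped between genotypes. The probe sets of these glia, fibrocyte and bone markers were thus among the brighter ones. The part of the epithelium in the signals was not tested, so they cannot be assigned to it alone. No calls of presence came with the signals, so the percentiles describe brightness and do not show that a marker is expressed. The targeted gene was lower, with 4.42, 4.36 and 4.21 in Pjvk-/- arrays, against 4.75, 5.06 and 4.96 in Pjvk+/+ arrays for Pjvk (adjusted p = 0.105). Its mean signal was dim, at percentile 11.3 of all genes. Endothelial and pericyte markers were lower in 8 of 8 genes, where 53.8% of all genes were lower. They averaged 7.99 to 8.14 in Pjvk-/- arrays and 8.23 to 8.26 in Pjvk+/+ arrays, without overlap. None of them was called, and the smallest adjusted p was 0.146, for Acta2 at -0.38. The difference smallest in size was that of Cdh5, at -0.04. The direction was that of Nfe2l2, Gclm, Gss and Nqo1, the genes of the set with separate groups on the lower side. Melanocyte markers, read beside Slc7a11, were lower in 5 of 8 genes and averaged 6.24 to 6.40 in Pjvk-/- arrays and 6.52 to 6.67 in Pjvk+/+ arrays. Dct, a pigment synthesis gene, was the 1 called among them (difference -1.86, adjusted p = 0.0115). Without Dct the averages overlapped, at 6.23 to 6.33 in Pjvk-/- arrays and 6.26 to 6.39 in Pjvk+/+ arrays. Skeletal muscle markers were higher in 7 of 8 genes, averaging 6.89 to 7.08 in Pjvk-/- arrays and 6.79 to 6.87 in Pjvk+/+ arrays. The myosin genes Myh4 and Myh1 were at 0.35 (adjusted p = 0.154) and 0.34 (adjusted p = 0.353), and none of the muscle markers was called. Both myosin genes were dim, at percentiles 19.9 and 16.3, in level decile 2, where only 29.7% of genes were lower. The marker lists were not matched for signal level. Macrophage markers, read beside Hmox1, were lower in 6 of 10 genes and overlapped, at 7.07 to 7.19 in Pjvk-/- arrays and 7.15 to 7.20 in Pjvk+/+ arrays. The part of these cell types in the 10 genes was not tested.

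Y-linked signal averaged 7.39 to 7.58 in Pjvk-/- arrays and 7.65 to 8.05 in Pjvk+/+ arrays over Eif2s3y, Kdm5d and Uty. None of these 3 genes passed the test (adjusted p from 0.241 to 0.337), and the groups of Eif2s3y overlapped. With that average as a covariate Nqo1 was at -0.07, Keap1 at -0.02, Gclc at -0.03, Slc7a11 at 0.37 and Hmox1 at -0.34, whereas Nfe2l2 was at -0.19. Since the Y-linked averages of the genotypes do not overlap, the covariate was largely confounded with the genotype. Nfe2l2 lay between -0.28 and -0.19 and Slc7a11 between 0.19 and 0.37 over the 15 alternative settings. Both kept their direction, as did every gene of the set except Gclc. Settings that changed only the genes tested, the probe set averaging, the variance prior or the block left both estimates at their main values. Because the groups of both genes do not overlap, leaving out 1 array could not reverse them.

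**Figure D5:**
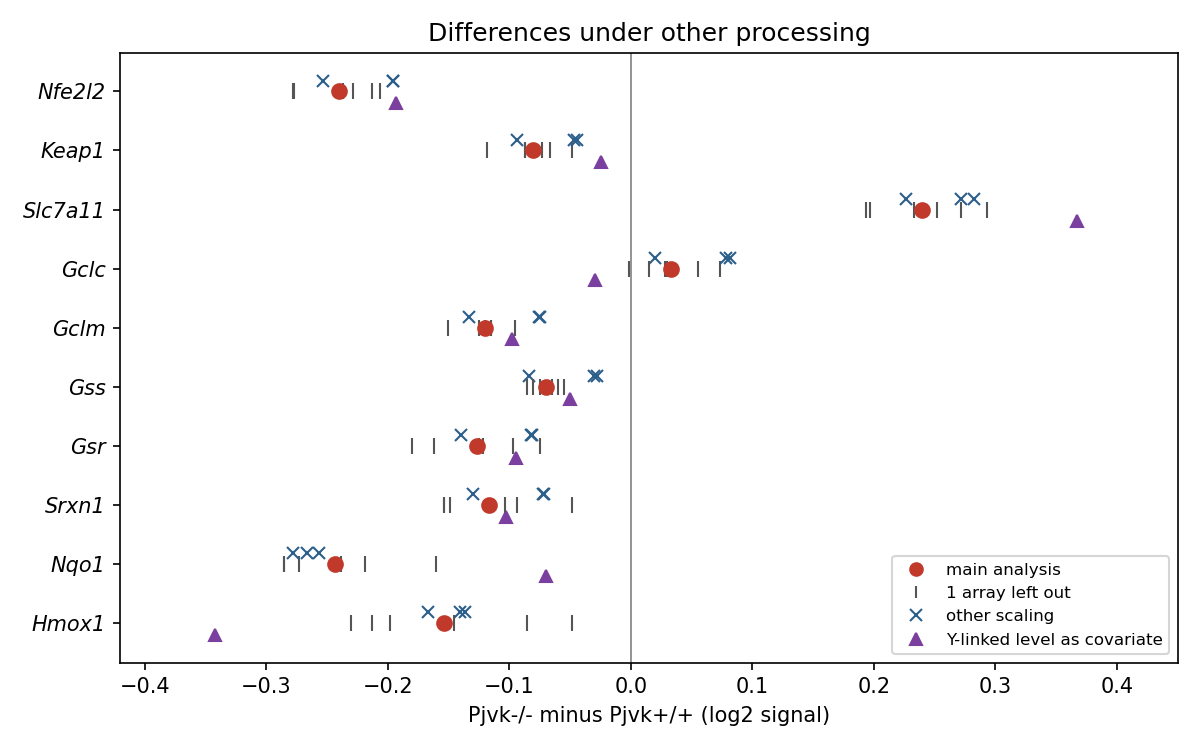
Difference between genotypes (horizontal axis, Pjvk-/- minus Pjvk+/+, log2 signal) for each gene in the main analysis (red points), with 1 array left out (grey ticks), under 3 other scalings (blue crosses) and after adjustment for Y-linked signal (purple triangles). Nfe2l2 and Slc7a11 stay on their side of 0 throughout, Nqo1 comes to -0.07 with the covariate, and Gclc is the 1 gene that crosses 0.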

How the data were processed

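The deposited table held log2 signals of 35557 probe sets on 6 arrays; per the submitters' processing notes the authors used the Affymetrix Expression Console, and the sources used here do not give its version, summarization or normalization. Per the labels, RNA was taken with TRIzol and RNeasy columns and 100 ng were labelled. Array medians ran from 6.66 to 6.69, and no further normalization was applied. The number of arrays limits the precision.

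A platform annotation gave 21789 probe sets a single gene symbol, updated through gene identifiers for 21698 of them; 1621 had several symbols, 12147 were unlisted, and none of these was used. The brightest probe set of each gene was kept, which left 19938 genes. The fit of genotype used lmFit and eBayes of limma 3.58.1 under R 4.3.3, and genes were called at a Benjamini-Hochberg adjusted p under 0.05. All intervals are 95% and unadjusted. The fit was tested on simulated data with planted changes larger than any difference in the set, so power at the sizes seen here was not tested. Promoter windows came from RefSeq (GRCm38.p6).

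All 10 genes were named, with the 4 of smallest unadjusted p in each pathway list and Pjvk as the targeted gene. Slc3a2, Mafk, Ttn and the markers of cell types and of the Y chromosome were named outside this rule. Members, lists and rules were chosen with earlier results of these data known. The labels do not say whether samples of a genotype were separate animals, so p-values measure the spread between samples, which may be technical. Alternatives covered normalization, dim genes, probe set averaging, the variance prior, the replicate numbers as a block, a Y-linked covariate (3 of the 4 genes intended had a probe set) and each array left out.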

Additional observations from a re-analysis of the deposited data

How the results depend on the processing

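No gene of the set was called under any of the 15 alternatives, 8 or 9 of the 10 were lower in each setting that kept all of them, 7 of 9 above the median level, where Nqo1 drops out, and the median stayed between -0.13 and -0.07. The smallest adjusted p-values came with an intensity trend and robust prior (0.0779 for Nfe2l2 and 0.0812 for Slc7a11). Gclc turned to -0.029 once Y-linked signal was a covariate, and with 1 array left out it ran from -0.0017 without Pjvk+/+ replicate 2 to 0.0733. Single arrays moved Keap1, Srxn1, Nqo1, Hmox1 and Gsr by over 1.5 times: Keap1 ran from -0.12 to -0.0483, Gsr ran from -0.18 to -0.075 and Hmox1 from -0.23 to -0.0483. Quantile normalization and cyclic loess, of which cyclic loess was chosen after seeing the data, brought 6 of the genes over 1.5 times away from their main values: with quantile normalization Keap1 was at -0.0467, Gss at -0.0278, Gclm at -0.075, Gsr at -0.0811, Srxn1 at -0.0711, Gclc at 0.0817 and the median at -0.0731, and cyclic loess differed from these by little (Keap1 at -0.0441). Over all genes, 7 calls became 18 with array median centring, 20 above the 25th percentile (2 of them higher), 45 above the median level (3 higher), 112 with the intensity trend and robust prior (12 higher), 1 with the replicate block and 0 with the Y-linked covariate. With 1 array left out the count ran from 2 to 6. The cause was not tested. Deviations of same-numbered arrays correlated at 0.0759, 0.0186 and -0.0094, so the numbers were not taken to pair the samples.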
